A study of Vitis vinifera with 2 samples.

Results

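The genes described here are the grapevine (Vitis vinifera) hexose transporters, invertases and the sugar exporter SWEET15, in wounded grape tissue that received the yeast Yarrowia lipolytica or water. They were chosen by gene name: HT5, LOC100232961 (synonym HT2), CWINV, NIN1 and LOC100243643 (synonym SWEET15), together with every other name made of HT and a number. This gave 17 of the 30485 genes in the tables, with 18 of 53908 transcript models. In 1 library the wound had been given 10 µL of a Y. lipolytica suspension, and in the other 10 µL of sterile water. Incubation was at 20 °C, and sampling followed on day 3. The labels give no cultivar, no berry number and no statement on pooling. The strain field holds the yeast's name even for the water sample, so titles, read with the protocol, set the groups. Each group has n = 1, so the differences below were not tested and carry no replicate check.

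Sugar reaches a berry through the phloem as sucrose. Invertases cleave sucrose into glucose and fructose: the cell wall enzyme does so outside the cell, and neutral invertases do so inside it. Hexose transporters of the HT family are proton-coupled carriers that take the resulting hexoses into the cell, their tonoplast relatives (TMT) load them into the vacuole, and SWEET proteins let sugars pass through a membrane down their gradient. In grapevine leaves, HT5 and the cell wall invertase are known as a pair of genes induced together by biotrophic pathogens.

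Levels are given in FPKM, fragments per kilobase of transcript adjusted for library depth by the authors, which allows different genes to be set side by side. The yeast library held 20540965 fragment equivalents and the water library 19010746. Brackets hold 95% intervals that cover counting error only and not the variation between berries or wounds. The 8 genes taken here as markers of ripening berry were abundant in both libraries. These 8 genes (GRIP4, GRIP22, GRIP61, MRIP1, TL1, TL3, CHI4D and ADH2) summed to 30355 FPKM with yeast and 29877 FPKM with water. Of these 8 genes, 5 were lower with yeast, GRIP22 with 439.5 FPKM with yeast and 794 FPKM with water among them. MRIP1 stood at 2750.3 FPKM with yeast and 581 FPKM with water. Without it the sum was 27605 FPKM with yeast and 29296 FPKM with water. The other measured GRIP genes were not in this set, so the sums depend on its choice. They were GRIP21, GRIP28, GRIP31, GRIP32, GRIP55, GRIP58 and GRIP68, all lower with yeast. GRIP28 stood at 7174 FPKM with yeast and 10216 FPKM with water, and GRIP68 at 14.4 FPKM with yeast and 21.6 FPKM with water. The single green tissue marker, PSBP1, stood at 0.988 FPKM with yeast and 1.07 FPKM with water. UFGT, taken as a skin marker, stood at 1.17 FPKM with yeast and 1.94 FPKM with water. The phloem sucrose carrier VVSUC27 stood at 0.522 FPKM with yeast and 0.427 FPKM with water. How much skin the tissue held was not tested. Fewer cells of a type and less RNA per cell cannot be told apart in such bulk tissue, and the part of tissue make-up in the values below was not tested.

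Of the measured genes, HT5 and the cell wall invertase CWINV were more than 2-fold higher in wound tissue given the yeast than in wound tissue given water, and LOC100232961 was more than 2-fold lower. NIN1, HT7, HT6 and SWEET15 were within 2-fold. SWEET15 was the most abundant of the 17 genes in both libraries. A gene was counted as measured when its FPKM reached 1 in either library, which 7 of the 17 genes did. The other 10 genes, all of them hexose transporters, stayed below 1 in both. A measured gene was counted as higher or lower when log2((yeast FPKM + 1)/(water FPKM + 1)) passed 2-fold. By this rule 2 of the 7 measured genes were higher and 1 was lower. Over all 16040 measured genes, 6.26% were higher and 3.66% lower. Of all genes past 2-fold, 63.1% were higher, or 82.7% once the libraries were rescaled to a median ratio of 0, and 44.8% with a pseudocount of 0.1. The genes had been picked with earlier results of these libraries known, so these counts describe them and say nothing of sugar genes in general.

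HT5, a plasma membrane hexose carrier, stood at 284 FPKM in the yeast library and 45.5 FPKM in the water library. This is a 6.25-fold higher level (5.93 to 6.58), resting on 11343 fragment equivalents with yeast and 1693 with water. Its log2 ratio of 2.62 was the 122nd highest of all 16040 measured genes. In the order of levels over all 30485 genes, HT5 held place 418 with yeast and place 2698 with water. The gene has a single transcript model of 1891 bases in 5 exons on the minus strand of chromosome 5 (4868712 to 4873422), with 2820 bases of intron. No other gene model overlaps that span. The build of these coordinates is not named in the files or labels, and chromosome numbers were assigned from gene symbols shared with a RefSeq table of another assembly.

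The other carriers that were measured went in both directions. LOC100232961, which carries the synonym HT2 and is a hexose carrier of the same family (chromosome 18, 4363707 to 4368921, 4 exons), stood at 2.87 FPKM with yeast and 7.36 FPKM with water. This was 0.390 times the water level (0.306 to 0.493), the only measured member counted as lower. It rests on 102 fragment equivalents with yeast and 243 with water, the fewest among the measured members. After rescaling to a median ratio of 0 its log2 ratio was -0.87, which is within 2-fold. HT7, known also as HT3 (chromosome 11, 6735232 to 6739026, 4 exons), stood at 12.8 FPKM with yeast and 8.47 FPKM with water. Its 1.51-fold higher level (1.31 to 1.76) lies within 2-fold, although the counting interval lies above 1.

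HT6 is also named TMT1 in the reference table, and TMT proteins carry sugars into the vacuole. It stood at 34.7 FPKM with yeast and 60.8 FPKM with water, 0.570 times the water level (0.538 to 0.603) and within 2-fold. HT6 is the single member with more than 1 transcript model (chromosome 18, 613506 to 619056). The longer model, of 2790 bases, stood at 17.7 FPKM with yeast and 29.1 FPKM with water, 0.607 times (0.561 to 0.657). The shorter one, of 2501 bases, stood at 17.0 FPKM with yeast and 31.7 FPKM with water, 0.535 times (0.492 to 0.581). Both models have 6 exons and were lower with yeast, and their intervals overlap. The longer one made up 51.0% of the gene's FPKM with yeast and 47.9% with water. How fragments were divided between these overlapping models is not described.

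**Figure D1:**
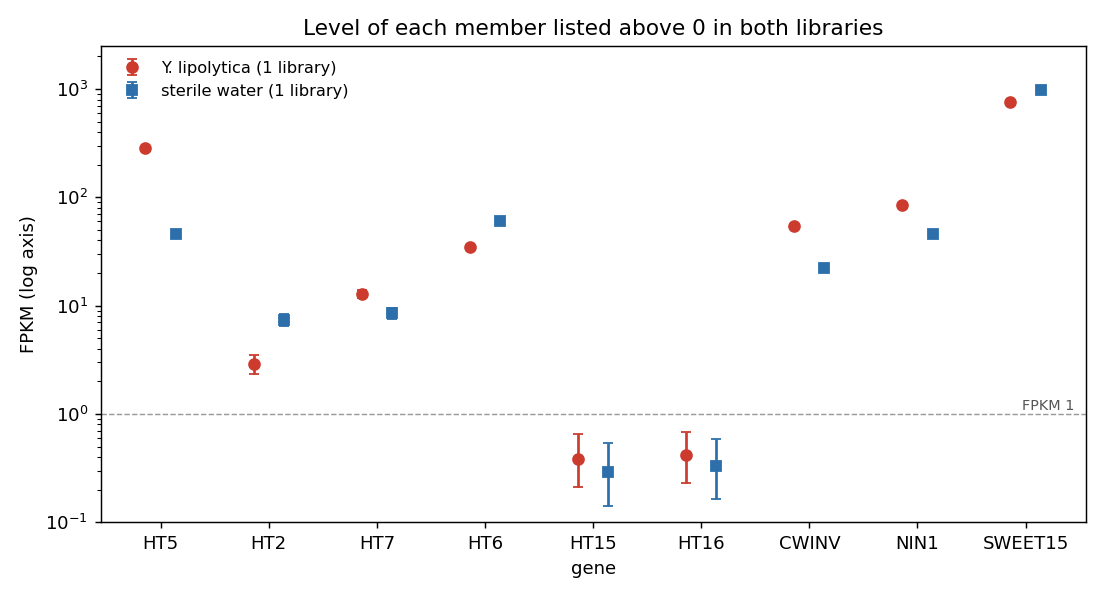
FPKM on a log axis of the 9 members listed above 0 in both libraries, with the Y. lipolytica library as red circles and the sterile water library as blue squares; bars are 95% counting intervals of a single library, most of them smaller than the symbol. HT2 is LOC100232961 and SWEET15 is LOC100243643. The red circle stands above the blue square for HT5 (284 against 45.5 FPKM), CWINV, NIN1 and HT7, and below it for HT2, HT6 and SWEET15, while HT15 and HT16 lie under FPKM 1 with overlapping bars.

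The remaining 10 hexose transporter genes gave little or no signal in either library. HT4, HT9, HT10, HT14 and HT17 were listed at 0 in both. HT11, HT18 and HT19 were listed at 0 with water and at 0.0269, 0.150 and 0.0898 FPKM with yeast, in that order. These yeast values correspond to 1, 5.22 and 3.30 fragment equivalents, so no fold is given. HT15 stood at 0.382 FPKM with yeast and 0.289 FPKM with water, a ratio of 1.32 (0.545 to 3.32). HT16 stood at 0.420 FPKM with yeast and 0.333 FPKM with water, a ratio of 1.26 (0.541 to 3.03). Both intervals include 1, so a difference was not detectable at this depth. For these 10 genes a count of 3 fragments would give between 0.0808 and 0.110 FPKM in the yeast library and between 0.0867 and 0.118 FPKM in the water library.

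Of these 10 genes, 8 lie in a pair of groups. HT15 to HT19, 5 genes in all, lie in this order on the plus strand of 1 unplaced sequence (362576 to 474697). HT18 ends there at 397780 and HT19 starts at 472334. HT9, HT10 and HT11 lie within 17635 bases on the plus strand of chromosome 14 (21924593 to 21942227). Neighbouring copies of this kind can share reads, so the separate values of these 8 genes, zeros included, are uncertain. The 10 genes have 3 to 5 exons and transcript models of 1292 to 1758 bases. HT4 lies apart on chromosome 16 (9174996 to 9178563) and HT14 on chromosome 9 (19788161 to 19790514).

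The hexose transporter pool, taken as the summed FPKM of the 14 HT genes with LOC100232961 among them, had a different make-up in each library. The sum was 335 FPKM with yeast and 123 FPKM with water, 2.73-fold more. HT5 held 84.7% of it with yeast and 37.0% with water. HT6 held 10.3% with yeast and 49.6% with water, and was the largest contributor in the water library. HT7 held 3.82% with yeast and 6.90% with water, and LOC100232961 held 0.855% with yeast and 5.99% with water. Everything other than HT5 summed to 51.4 FPKM with yeast and 77.3 FPKM with water. The 10 genes below FPKM 1 together held less than any of the 4 named ones in each library. Without the tonoplast carrier HT6, the sum was 301 FPKM with yeast and 61.9 FPKM with water, of which HT5 held 94.4% with yeast and 73.4% with water. HT5 stood at 8.20 times the FPKM of HT6 with yeast and 0.747 times with water, against 3.42 times with yeast and 0.313 times with water in the authors' deposited gene table.

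**Figure D2:**
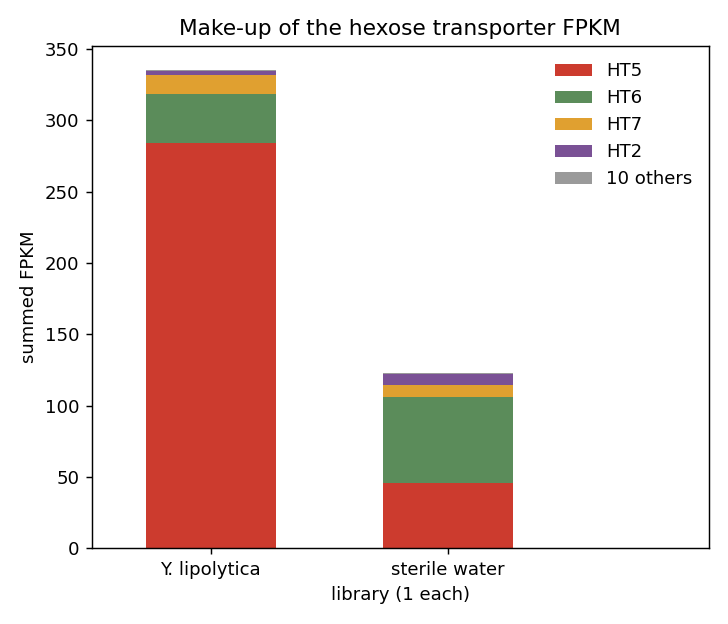
Summed FPKM of the 14 hexose transporter genes in the Y. lipolytica library (left) and the sterile water library (right), 1 library each, with each colour showing the part of 1 gene and grey the 10 genes below FPKM 1, a layer too thin to see at this scale. HT2 is LOC100232961. The left bar reaches 335 FPKM and is mostly HT5 (84.7%), and the right bar reaches 123 FPKM, with HT6 (49.6%) ahead of HT5 (37.0%).

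Of the 2 invertases, CWINV was past 2-fold and NIN1 was within it. CWINV, the cell wall invertase that cleaves sucrose outside the cell (chromosome 9, 2133159 to 2136764, plus strand, 7 exons), stood at 54.5 FPKM with yeast and 22.3 FPKM with water. This is a 2.45-fold higher level (2.26 to 2.65), and CWINV is the second member counted as higher. NIN1, a neutral invertase that cleaves sucrose inside the cell (chromosome 5, 339587 to 343282, plus strand, 6 exons), stood at 85.5 FPKM with yeast and 45.6 FPKM with water. Its ratio was 1.87 (1.77 to 1.98), so it was within 2-fold. With the libraries rescaled to a median ratio of 0 its log2 ratio was 1.21, past 2-fold.

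The balance between these 2 invertase genes and the carrier gene HT5 differed between the libraries. The FPKM of both invertases summed to 140.0 with yeast and 67.9 with water. NIN1 stood above CWINV in each library, at 1.57 times its FPKM with yeast and 2.05 times with water, or 4.56 times with yeast and 5.96 times with water in the authors' deposited gene table. HT5 stood at 5.21 times the FPKM of CWINV with yeast and 2.04 times with water. Set against NIN1, HT5 was at 3.32 times with yeast and 0.996 times with water. In the water library the intervals of HT5 (43.3 to 47.7 FPKM) and NIN1 (43.6 to 47.8 FPKM) overlapped, so their order there is not resolved. The authors' deposited table of 1 value per gene gives other ratios for some pairs: HT5 stood there at 1.16 times the value of NIN1 with yeast and 0.349 times with water. For HT5 over CWINV it gives near values, 5.30 times with yeast and 2.08 times with water.

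SWEET15 belongs to the SWEET group known in Arabidopsis for sucrose export across the plasma membrane. Its gene, LOC100243643 (chromosome 1, 22072454 to 22074182, minus strand, 6 exons), stood at 751 FPKM with yeast and 989 FPKM with water, 0.759 times the water level (0.745 to 0.774). Over all genes it held place 117 with yeast and place 72 with water. Its log2 ratio of -0.40 lay 0.12 below the median of all measured genes, which was -0.28. With 19848 fragment equivalents with yeast and 24364 with water, it is the most deeply sampled of the members. SWEET15 stood at 2.65 times the FPKM of HT5 with yeast and 21.8 times with water, against 1.15 times with yeast and 9.44 times with water in the authors' deposited gene table.

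Ordered by level, the yeast library ran SWEET15, HT5, NIN1, CWINV, HT6, HT7 and LOC100232961. The water library ran SWEET15, HT6, NIN1, HT5, CWINV, HT7 and LOC100232961. No pair of neighbours in the yeast order had overlapping counting intervals. In the water library HT5 and NIN1 overlapped, as did HT7 (7.53 to 9.50 FPKM) and LOC100232961 (6.45 to 8.33 FPKM).

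**Figure D3:**
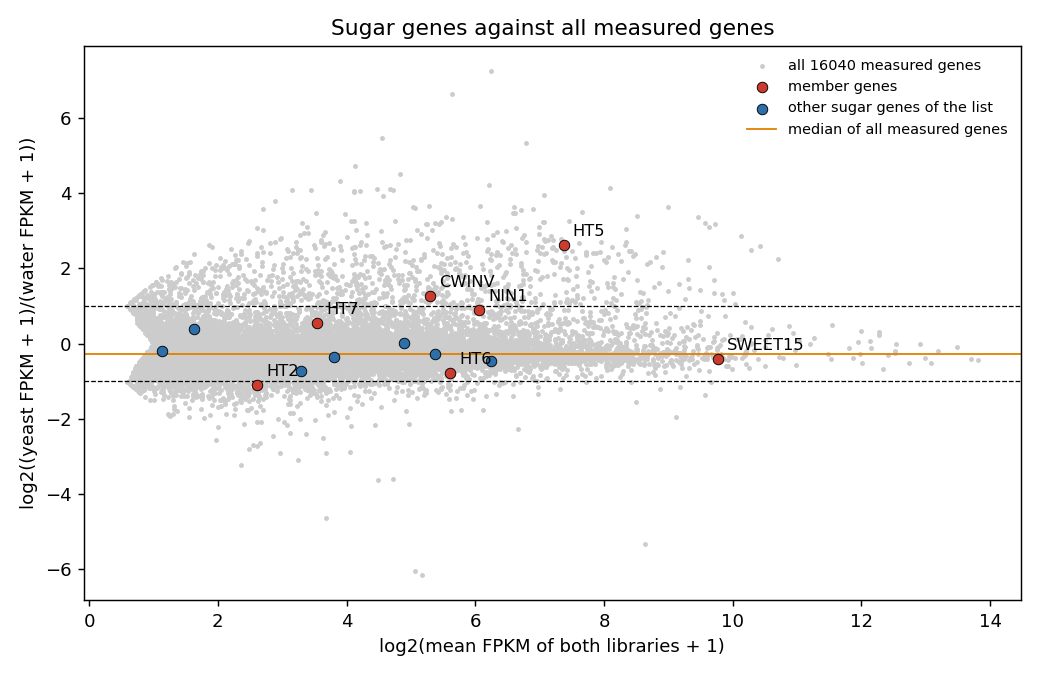
Each grey point is 1 of the 16040 measured genes, with the log2 of its mean FPKM plus 1 on the horizontal axis and its log2 ratio of yeast over water (pseudocount 1) on the vertical axis; red points are the 7 measured members, blue points the 7 other measured sugar genes, dashed lines mark 2-fold and the orange line the median ratio of -0.28. HT2 is LOC100232961 and SWEET15 is LOC100243643. HT5 lies well above the 2-fold line at a high level, CWINV just above it and NIN1 just below it, and SWEET15 sits near the orange line at the high end of the level axis.

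The median ratio of all measured genes was below 0, and 73.5% of them had a ratio below 0, so the position of a member within all genes depends on this shift as well as on its own values. Relative to that median, the log2 ratios were 2.89 for HT5, 1.53 for CWINV, 1.17 for NIN1, 0.82 for HT7, -0.12 for SWEET15, -0.52 for HT6 and -0.84 for LOC100232961. From the top of 16040 genes, CWINV was in place 734, NIN1 in place 1118, HT7 in place 1723 and SWEET15 in place 10109. From the bottom, LOC100232961 was in place 392 and HT6 in place 1358.

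A list of carriers, invertases and hexose kinases, drawn up by symbol and synonym, held 27 genes, the 17 members among them. Of its 14 measured genes 2 were higher, 1 was lower and 11 were within 2-fold, with a median log2 ratio of -0.24 against -0.28 for all measured genes. The 2 higher genes and the lower one were members, and the 7 measured genes outside the members were all within 2-fold, as were 90.1% of all measured genes. SUT2, TMT3 and VVSUC27, also outside the members, did not reach FPKM 1. No symbol matched sucrose synthases, sucrose phosphate synthases or fructokinases, which are not analysed here. Among invertases, CWINV and NIN1 were the only matches, GIN names gave none, and invertases under other names are not covered.

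TMT2, a tonoplast carrier, stood at 6.34 FPKM with yeast and 11.2 FPKM with water, 0.567 times (0.501 to 0.642). Both measured tonoplast carriers, TMT2 and HT6, were thus below the median of all genes and within 2-fold. TMT3 was listed at 0 with yeast and at 0.0177 FPKM with water. Among sucrose carriers, VVSUC11 stood at 63.2 FPKM with yeast and 87.2 FPKM with water, 0.725 times (0.686 to 0.766). SUC12 stood at 36.4 FPKM with yeast and 44.5 FPKM with water, and VVSUC12 at 28.9 FPKM with yeast and 28.6 FPKM with water. SUC12 and VVSUC12 are separate entries of the files. SUT2 was listed at 0 in both libraries. The ratio of SUC12 was -0.28 on the log2 scale, and 0.03 with the libraries rescaled to a median ratio of 0.

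The polyol carrier PMT4 stood at 2.52 FPKM with yeast and 1.70 FPKM with water, 1.48-fold higher (1.10 to 2.00), and PMT2 at 1.04 FPKM with yeast and 1.34 FPKM with water. Hexokinases phosphorylate hexoses once they are in the cell. HXK2, the listed one, stood at 11.2 FPKM with yeast and 14.7 FPKM with water, 0.761 times (0.658 to 0.879).

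**Figure D4:**
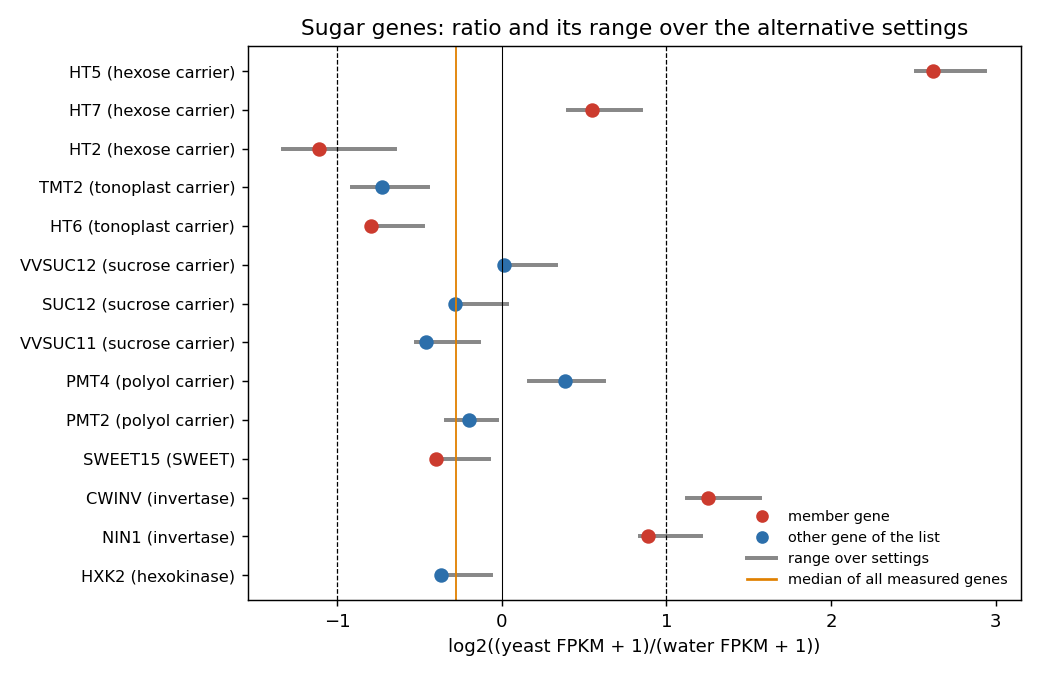
Log2 ratio of yeast over water (pseudocount 1) for the 14 measured sugar genes, grouped by class, with members in red and other genes of the list in blue; grey bars give the range over the 9 alternative settings, dashed lines mark 2-fold and the orange line the median of all measured genes. HT2 is LOC100232961 and SWEET15 is LOC100243643. HT5 and CWINV lie past 2-fold over their whole range, while the range of NIN1 crosses the upper line and that of HT2 the lower one.

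The differences were set beside those of the nearest loci, 4 on each side of each measured member. Of the 56 neighbouring loci 40 were measured, and 1 of them was higher and 1 lower, both beside NIN1. Both counts are small, and over all measured genes 6.26% were higher and 3.66% lower. Around HT5, the 5 measured neighbours had log2 ratios between -0.34 and 0.27, against 2.62 for HT5 itself. The closest of them, LOC100256313, ended 3452 bases from HT5 and stood at 0.963 FPKM with yeast and 1.49 FPKM with water. Around CWINV, all 8 neighbours were measured and ranged from -0.96 to 0.25, against 1.25 for CWINV. LOC100261732, which lies 758 bases after CWINV, stood at 169 FPKM with yeast and 203 FPKM with water.

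NIN1 had neighbours past 2-fold on each side. LOC100248153, 7766 bases before it, stood at 17.5 FPKM with yeast and 7.57 FPKM with water. LOC100244732, 15693 bases after it, stood at 0.547 FPKM with yeast and 4.13 FPKM with water. The files give no name or role for either gene. Around HT6, by contrast, the 5 measured neighbours had log2 ratios between -0.85 and -0.43, a range that holds the value of HT6, -0.79. Around LOC100232961 the 6 measured neighbours lay between -0.38 and 0.12, against -1.11 for the gene itself. Around HT7 the 5 measured neighbours lay between -0.63 and -0.21, against 0.55 for HT7, and around SWEET15 the 4 measured ones lay between -0.44 and 0.33.

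**Figure D5:**
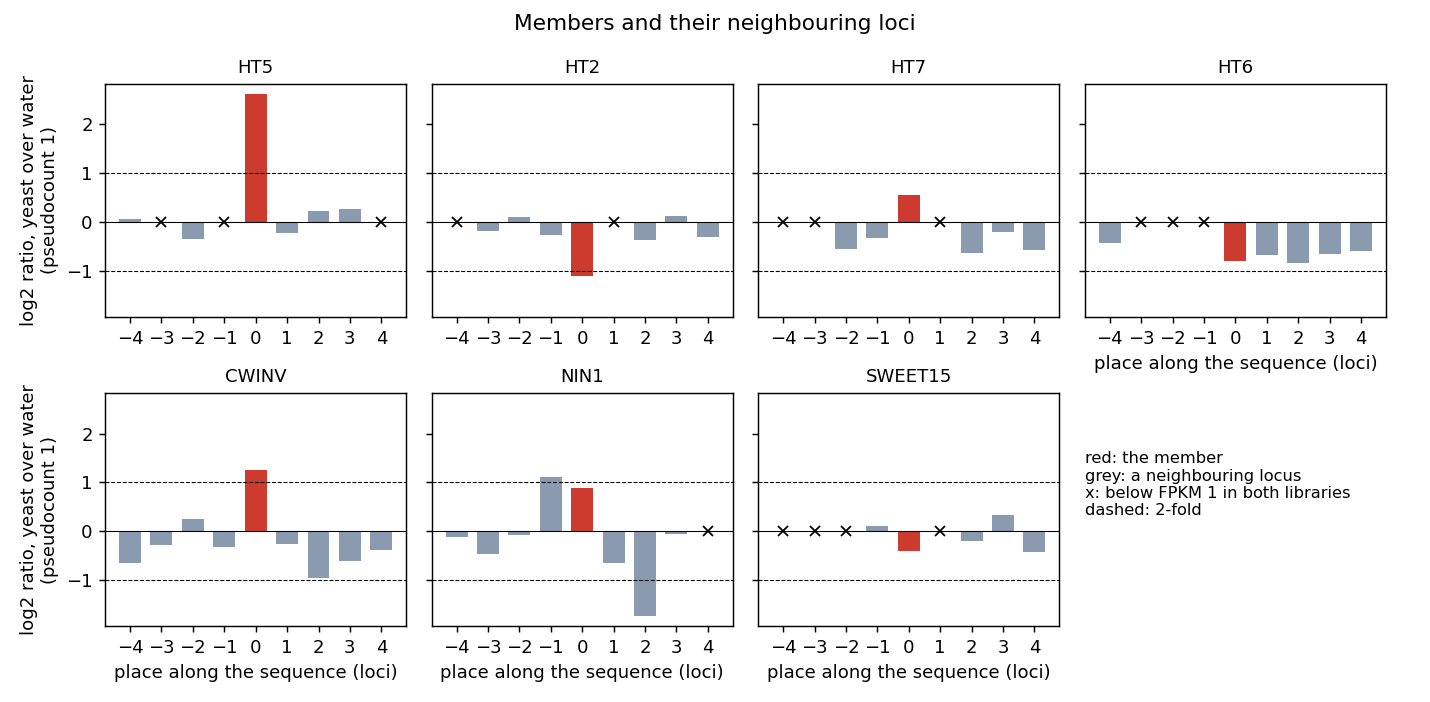
Log2 ratio of yeast over water (pseudocount 1) for each measured member (red, place 0) and the 4 loci on either side in the order of their start (grey); crosses mark loci below FPKM 1 in both libraries and dashed lines mark 2-fold. HT2 is LOC100232961 and SWEET15 is LOC100243643. The bars of HT5 (2.62) and CWINV (1.25) stand above the upper line with no neighbour past it, and the bar of HT6 is of like size to those of its measured neighbours.

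For each measured member, the named genes with the most similar pair of values were sought among 369 genes with a symbol or synonym, by distance between log2(FPKM + 1) in both libraries. Likeness over only 2 libraries is a description of level and ratio, and nothing more. Nearest to HT5 were LOC100248930 (synonym BAP1), at 281 FPKM with yeast and 56.1 FPKM with water, the phenylalanine ammonia-lyase GVVPAL2, at 214 and 39.8 FPKM, and the lipoxygenase LOXO, at 233 and 64.0 FPKM. Nearest to CWINV were the gene written WKRY in the files, at 60.4 FPKM with yeast and 20.7 FPKM with water, the coumarate ligase 4CL, at 56.2 and 19.0 FPKM, and CCC1, at 43.5 and 23.3 FPKM. Their distances were between 0.30 and 0.56 for HT5 and between 0.18 and 0.33 for CWINV. NIN1 lay nearest to LOC100246391 (synonym SERAT), at 88.5 FPKM with yeast and 40.8 FPKM with water. SWEET15 lay nearest to ADF, at 759 FPKM with yeast and 1152 FPKM with water.

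HT6 lay nearest to the mitochondrial gene atp9, at 32.8 FPKM with yeast and 63.8 FPKM with water, and next to the anthocyanin enzyme LDOX, at 40.6 FPKM with yeast and 59.5 FPKM with water. LOC100232961 lay nearest to UVR1, at 2.87 FPKM with yeast and 6.99 FPKM with water. HT7 lay nearest to CIPK08, at 12.7 FPKM with yeast and 9.50 FPKM with water, and to the alcohol dehydrogenase ADH1, at 13.5 FPKM with yeast and 9.52 FPKM with water.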

How the data were processed

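RNA from wounded grape tissue was sequenced in 1 library per group. Per the submitters' processing notes, HISAT2 and HTSeq 0.6.1 were used; their roles, genome build and annotation are not given in the sources used here. Per the file headers, the authors deposited a table per library with a coverage signal (mean depth per base) and FPKM for each transcript model, and a gene table whose values were treated as a score, since the authors' method for it is not given.

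FPKM was summed over transcripts of a gene name. A pseudocount of 1 was added before log2. Coverage times length gave aligned bases, and 300 bases were taken as 1 fragment equivalent, because low transcripts piled up at multiples of 150 bases. This unit is an assumption and the read length is not stated. Intervals are exact 95%: binomial on rounded fragment equivalents for folds (rescaled to the FPKM ratio), and Poisson for levels. They cover counting error only. The functions were tested on simulated data. Software was Python 3.11.15, pandas 2.3.3 and scipy 1.17.1.

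Members and lists were chosen with earlier results of these data known. The list used gene names, symbols and synonyms; the reference table has no descriptions, so no match could be dropped by description. HT6 was placed with the tonoplast carriers for its synonym. Every measured list gene could be named, and up to 3 like genes for each member. Alternatives were other pseudocounts, filters, scalings and summaries.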

Additional observations from a re-analysis of the deposited data

How the results depend on the processing

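No paired analysis was possible because n = 1 in both groups; for the same reason no replicate could be left out. Over 9 alternative settings, 123 values of the 14 measured sugar genes were recomputed. Of these, 120 kept their side of the 2-fold line, and none that was past 2-fold changed sign. Filters do not alter a gene's own ratio, and the highest transcript does not where a gene has a single transcript model. Part of this count was thus fixed in advance. HT5 ranged from 2.52 to 2.94 on the log2 scale and CWINV from 1.13 to 1.57, so both were past 2-fold in each setting. NIN1 was past 2-fold after rescaling to a median ratio of 0, at 1.21. LOC100232961 was within 2-fold with that rescaling, at -0.87, and with a pseudocount of 5, at -0.65, and had no value under the filter of FPKM 10. The count of lower sugar genes, 1 in the report, was therefore 0 in these 3 settings, and the count of higher ones was 2, or 3 after rescaling. The median of the list, -0.24 in the report, was 0 with no filter on low values, where 27 genes entered, and 0.0026 after rescaling to a median of 0. Over all genes, a pseudocount of 0.1 gave 1251 higher and 1540 lower, against 1004 and 587 with 1; 622 and 116 were past 2-fold with a pseudocount of 5, 694 and 232 with a filter of FPKM 10, and 1379 and 288 after rescaling to a median of 0. Pseudocounts and filters cannot turn a sign, so the lack of turned signs among values past 2-fold was largely fixed by the settings. SUC12, which was within 2-fold, turned from -0.28 to 0.03 after rescaling to a median of 0. Depth limits the 10 carriers below FPKM 1, where the intervals of HT15 and HT16 include 1 and the others have no fold. The variation between wounds is unknown because each group has 1 library.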

Other observations

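The deposited table with 1 value per gene gave the members other levels than their transcript FPKM, with nearly the same ratios. NIN1 stood there at 350 with yeast and 187 with water, which is 4.09 times its transcript FPKM in the water library. HT6 stood at 119 with yeast and 208 with water, 3.42 times its transcript FPKM in the water library, while SWEET15 stood at 467 with yeast and 615 with water, 0.621 times. Dividing the aligned bases of each gene, scaled to depth as FPKM is, by the value in that table gives a number of bases that came out whole (tolerance 0.01) in both libraries for 7 of 7 measured members, and may be a length used as divisor. The authors' method is not given, so this reading is an inference. For NIN1 this number was 494 bases in both libraries, against a transcript model of 2022 bases, for HT5 1320 against 1891, and for SWEET15 2013 against 1251. The number for SWEET15 also exceeds the 1729 bases that its model spans with introns, so it is not a length of that model. The ratio of yeast over water was 6.25 for HT5, 2.45 for CWINV and 0.390 for LOC100232961 in that table, the same as from the transcripts to 3 digits. If the reading holds, levels of different genes in that table are not on a common scale. In the yeast library HT6 (119) stood above CWINV (76.7) there, while by FPKM HT6 (34.7) stood below CWINV (54.5). The order of HT7 (20.2 with yeast and 13.3 with water) and LOC100232961 (6.48 with yeast and 16.6 with water) in the water library is the other way round from that in FPKM.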
